A study of Mus musculus with 4 samples.

Results

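Cathepsins are proteases of the lysosome, and cystatin C, encoded by Cst3, is a secreted inhibitor of those that use an active-site cysteine. Messenger RNA for 9 cathepsin genes (Ctsb, Ctsk, Ctsl, Ctss, Ctsh, Ctsc, Ctsz, Ctsd and Ctsa) and for Cst3 was followed in the parietal peritoneum of mice. These 10 genes were taken by name, with every probe set that carries 1 of their symbols, out of 18193 genes measured. All mice were of the C57BL/6J strain and were either wild type (WT) or carried SAP-BNP-Tg (Tg), a transgene in which the serum amyloid P promoter drives brain natriuretic peptide. That promoter is active in the liver, from where the hormone reaches other tissues through the blood. Mice of each genotype were injected into the peritoneal cavity either with chlorhexidine gluconate, an antiseptic and an irritant of serous membranes, or with ethanol/PBS, called vehicle here. The chlorhexidine solution held 0.1% of the drug in 15% ethanol and 85% PBS, and 0.01 mL per gram of body weight was given 3 times a week for 21 days. For the vehicle mice neither the ethanol percentage nor the volume and schedule are stated in the labels, so an effect of ethanol and one of the drug cannot be told apart. The 4 groups had 1 expression array each, and neither the number of mice behind an array nor their age is in the labels.

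Cathepsins B, K, L and S are cysteine proteases that cut inside protein chains, H, C and Z act mainly at chain ends, D is an aspartic protease, and A is a serine carboxypeptidase that also protects other lysosomal enzymes. They are made as inactive precursors, sorted to the lysosome and matured at acid pH, and part of them is secreted during tissue remodelling, where cathepsin K cleaves collagen and cathepsin S stays active at neutral pH. Cathepsins L and S also trim the invariant chain that guards MHC class II molecules. In a serous membrane the main producers are macrophages, with fibroblasts and mesothelial cells contributing.

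The start sites of 8 of the 10 genes were listed in RefSeq (GRCm38.p6) as 9 windows of 300 bases, from 250 bases before to 50 after the start. Ctsb and Ctsh were not among them. Both strands of each window were searched for the E-box core CACGTG, which is its own reverse complement and is read by the lysosomal regulators of the MiT/TFE family, for the interferon response core (GAAA and GAAA with any 2 bases between), for the purine-rich ETS core GAGGAA, and for the AP-1 core TGANTCA. The upstream stretches of Ctss and Ctsk are shown because these genes differed most with chlorhexidine, and those of Ctsd and Ctsa because each holds 2 copies of the E-box. Capitals mark the motif copies, and all are written 5′ to 3′ on the gene's strand.
Ctss, chr3:95526666-95526785, plus strand, interferon response core in capitals: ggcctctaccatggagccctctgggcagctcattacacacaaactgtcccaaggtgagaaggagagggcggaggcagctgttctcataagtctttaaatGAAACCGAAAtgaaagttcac
Ctsk, chr3:95499090-95499209, plus strand, ETS core of the opposite strand in capitals: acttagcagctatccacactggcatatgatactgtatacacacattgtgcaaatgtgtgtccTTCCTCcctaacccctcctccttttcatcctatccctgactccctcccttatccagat
Ctsd, chr7:142387828-142388077, minus strand, E-box core in capitals: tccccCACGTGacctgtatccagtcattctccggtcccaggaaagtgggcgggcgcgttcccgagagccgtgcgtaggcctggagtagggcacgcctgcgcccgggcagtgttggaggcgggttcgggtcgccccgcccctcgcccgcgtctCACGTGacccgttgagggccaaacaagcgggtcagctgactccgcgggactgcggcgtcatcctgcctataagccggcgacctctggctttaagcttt
Ctsa, chr2:164833757-164833786, plus strand, spanning one of its 2 listed starts, E-box core in capitals: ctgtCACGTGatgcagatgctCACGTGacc

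The E-box core was found in windows of 3 of the 8 genes: in Ctsd 245 and 98 bases before the start, in Ctsl 236 bases before it, and in Ctsa 12 bases before and again at base 6 counted from it. Of all 32851 windows, 7.15% held this core and 0.594% held 2 or more copies; of 26 genes of other lysosomal hydrolases with a window, 8 held it. The interferon response core was found in Ctss, 21 bases before the start, and in 3.44% of all windows. The short ETS core was found in 4 of the 8 genes (Ctsk, Ctss, Ctsc and Cst3) and in 28.3% of all windows, while the AP-1 core was in none of the 8 and in 7.81% of all windows. Ctsk and Ctss are next to each other among the protein-coding genes of chromosome 3. These matches describe letters in a window and do not show that a factor binds there.

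The arrays called 50.5% to 55.1% of probe sets Present, that is, detected above background. Signals are given after each array was multiplied to a common trimmed mean, by factors of 0.877 to 1.17. The vehicle array of WT mice stood apart in some of its control probes. Its 18S ribosomal RNA signal, as deposited and before this scaling, was 898 against 82.8 to 117 elsewhere. For actin its ratio of 3′ to middle probes was 5.81 against 2.23 to 2.84. Its ratio of 3′ to 5′ actin probes was close to the others, at 1.22 against 1.07 to 1.15. For the 10 genes, and for lists and genes whose calls change, the WT chlorhexidine array is therefore also set against the Tg vehicle array. All 9 mesothelial markers and all 10 skeletal muscle markers were Present on all 4 arrays, so the samples held body wall muscle along with the lining. The transgene's own message, Nppb, was Present on no array, with signals of 6.91, 20.1, 9.04 and 4.04 (WT vehicle, WT chlorhexidine, Tg vehicle, Tg chlorhexidine), so these arrays do not show the genotype. With 1 array per group there is no test and no replicate error. A gene is called higher or lower when it differs at least 2-fold, is Present on the brighter array and lies there above the lowest 25% of Present signals. Differences are set against the SD between probe sets of 1 gene, over 4431 genes with several probe sets Present on all 4 arrays, which measures disagreement between probes and not between mice.

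All 9 cathepsins were higher on both chlorhexidine arrays than on both vehicle arrays, an arrangement found in 30.1% of the 12754 genes Present on at least 1 array, while Cst3 was not. In each genotype 9 of the 10 genes were above 0, as were 49.9% of all genes in WT and 50.1% in Tg mice. Of the 10 genes, 3 passed the size rule in WT mice (Ctsk, Ctss and Ctsh), where 8.22% of all genes were called higher. In Tg mice 2 passed (Ctsk and Ctss), where 3.81% of all genes were. Both of these passed in both genotypes, as 3.03% of all genes did. With the signals as deposited neither passed in Tg mice (Ctsk 0.90 and Ctss 0.83), and after median centring Ctss did not (0.97). In WT mice Ctsh lost its call after median centring (0.86), while Ctsc, Ctsl and Ctsz passed as well under each of the other 3 scalings. With the vehicle arrays exchanged between genotypes 3 genes passed for the WT chlorhexidine array, where 7.23% of all genes did, and 2 for the Tg one, where 5.17% did. None of the 10 was called lower, against 4.93% of all genes in WT and 1.4% in Tg mice. The median log2 difference of the 10 genes was 0.80 in WT and 0.65 in Tg mice, and that of all genes was 0.00 in both. In WT mice 8 of the 10 differences were larger than the SD between probe sets of 0.454 and 4 were more than 2 SD (Ctsc, Ctsh, Ctsk and Ctss), against 50.9% and 21.4% of all genes. In Tg mice, with an SD of 0.294, 9 were beyond 1 SD and 6 beyond 2 SD (Ctsc, Ctsh, Ctsk, Ctsl, Ctss and Ctsz), against 48.9% and 22.9%.

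**Figure D1:**
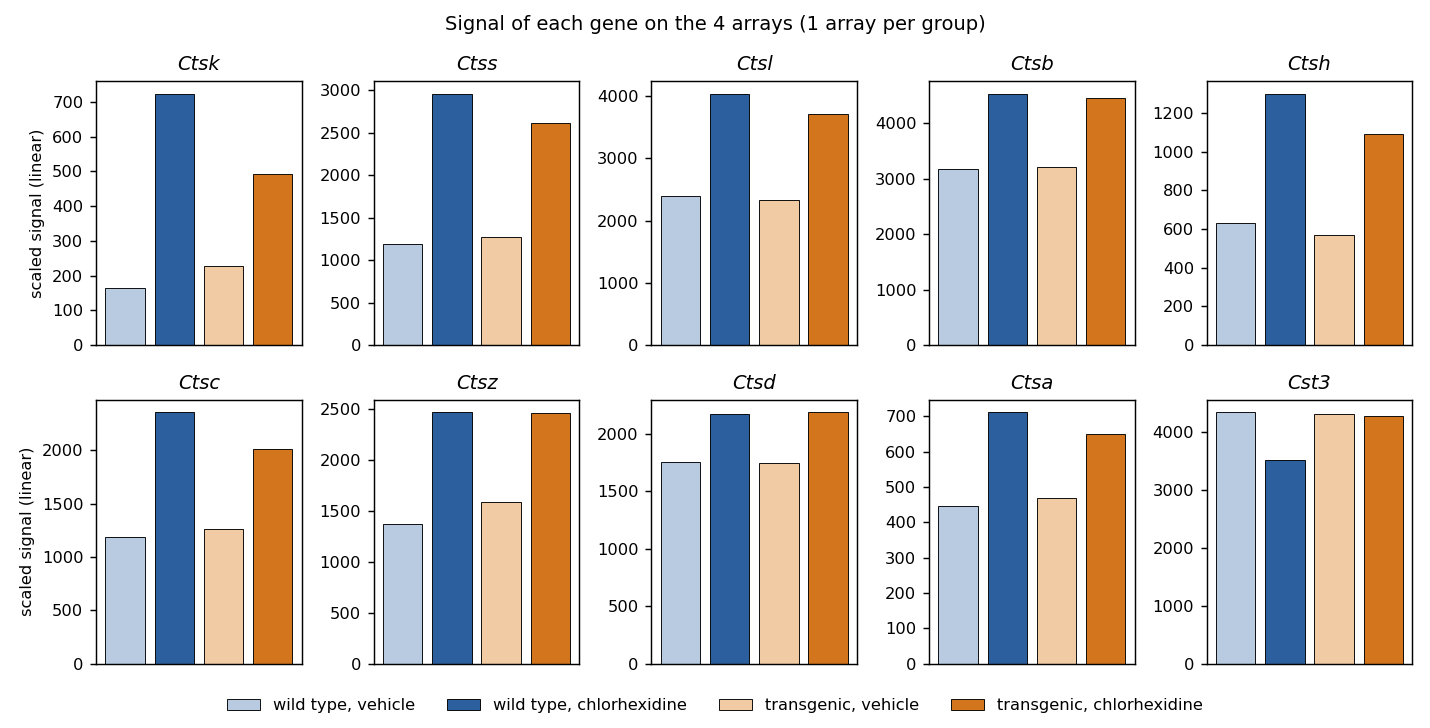
Scaled signal (linear scale, each panel with its own axis from 0) of the 10 genes on the 4 arrays; each bar is 1 array, so there is no error bar. In the 9 cathepsin panels both dark bars (chlorhexidine) stand above both pale bars (vehicle), while Cst3 is lowest on the WT chlorhexidine array at 3506.

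Ctsk, whose product cleaves collagen and is known for bone resorption, differed most. Its signal was 164 on the WT vehicle array, 724 on the WT chlorhexidine array, 228 on the Tg vehicle array and 492 on the Tg chlorhexidine array. Both chlorhexidine arrays were high, the WT one more so, and the 2 vehicle arrays were low. The chlorhexidine difference was 4.41-fold (log2 2.14) in WT and 2.15-fold (1.11) in Tg mice. Against the Tg vehicle array the WT chlorhexidine value was 3.17-fold higher (1.66), and against the WT vehicle array the Tg one was 2.99-fold higher (1.58). The gene is read by 1 probe set, so no second reading of it exists here.

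Ctss, the antigen-processing cathepsin of macrophages and other presenting cells, was next. Its signals were 1190 (WT vehicle), 2958 (WT chlorhexidine), 1271 (Tg vehicle) and 2610 (Tg chlorhexidine). The vehicle arrays were close to each other and both chlorhexidine arrays were more than 2-fold above them. The chlorhexidine difference was 2.49-fold (log2 1.31) in WT and 2.05-fold (1.04) in Tg mice, and it was 2.33-fold (1.22) and 2.19-fold (1.13) with the vehicle arrays exchanged.

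Ctsl, a broadly expressed endopeptidase, had signals of 2401 (WT vehicle), 4042 (WT chlorhexidine), 2336 (Tg vehicle) and 3719 (Tg chlorhexidine). The chlorhexidine arrays were 1.68-fold (log2 0.75) and 1.59-fold (0.67) above their vehicle arrays, short of the size rule. Its WT difference was 0.79 when set against the Tg vehicle array. A second probe set of Ctsl, dim on the vehicle arrays at 24.9 (WT) and 28.5 (Tg), gave 1.17 and 0.67.

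Ctsb, the most studied of the lysosomal cysteine proteases, was the cathepsin whose probe sets disagreed most on the size of the difference. On the probe set used for the gene its signals were 3181 (WT vehicle), 4535 (WT chlorhexidine), 3204 (Tg vehicle) and 4449 (Tg chlorhexidine), a difference of 1.43-fold (log2 0.51) and 1.39-fold (0.47), the former being 0.50 against the Tg vehicle array. A second probe set read 1476, 3565, 2262 and 3330 in the same order, a difference of 1.27 in WT and 0.56 in Tg mice. Of the other probe sets Present on all 4 arrays, one gave 1.18 and 0.48 and another 0.14 and 0.37. The 4 probe sets spanned 0.14 to 1.27 in WT mice but only 0.37 to 0.56 in Tg mice, and between the vehicle arrays they ran from -0.27 to 0.62. The disagreement thus lay on the WT vehicle array, the array that stood apart in some of its control probes. Whether those controls bear on it was not tested.

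Of the cathepsins that act at chain ends, Ctsh had signals of 630 (WT vehicle), 1300 (WT chlorhexidine), 569 (Tg vehicle) and 1092 (Tg chlorhexidine). It was 2.06-fold higher with chlorhexidine in WT mice (log2 1.05), just past the size rule, and 1.92-fold higher in Tg mice (0.94), just short of it. With the Tg in place of the WT vehicle array the WT difference was 2.28-fold (1.19). The second probe set of Ctsh gave 1.17 and 0.83.

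Ctsc, the dipeptidyl peptidase that activates the serine proteases of granulocytes, had signals of 1191 (WT vehicle), 2357 (WT chlorhexidine), 1261 (Tg vehicle) and 2007 (Tg chlorhexidine). At 1.98-fold (log2 0.98) in WT and 1.59-fold (0.67) in Tg mice it lay just outside the size rule in the former, and with the Tg vehicle array the WT difference was 0.90. Its other probe sets gave 1.09 and 0.80 in WT mice and 0.60 and 0.18 in Tg mice. The one with 0.80 and 0.18 was dim, with signals of 23.2 (WT vehicle) to 40.4 (WT chlorhexidine).

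Ctsz, a carboxypeptidase abundant in myeloid cells, had signals of 1371 (WT vehicle), 2465 (WT chlorhexidine), 1586 (Tg vehicle) and 2458 (Tg chlorhexidine). The chlorhexidine differences were 1.80-fold (log2 0.85) and 1.55-fold (0.63). On this probe set the chlorhexidine arrays gave nearly the same signal, so the gap between the 2 differences followed from the vehicle arrays. The WT difference was 0.64 against the Tg vehicle array. The other 2 probe sets gave 0.81 and 0.97 in WT mice and 0.71 and 0.69 in Tg mice. The first of them read 403 (WT vehicle), 706 (WT chlorhexidine), 373 (Tg vehicle) and 611 (Tg chlorhexidine), with the WT vehicle array the higher.

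The aspartic protease gene Ctsd differed least of the cathepsins, with signals of 1753 (WT vehicle), 2173 (WT chlorhexidine), 1747 (Tg vehicle) and 2191 (Tg chlorhexidine). Its differences of 1.24-fold (log2 0.31) and 1.25-fold (0.33) were alike in both genotypes, and only the Tg one was larger than its SD between probe sets. The serine carboxypeptidase gene Ctsa had signals of 445 (WT vehicle), 712 (WT chlorhexidine), 470 (Tg vehicle) and 650 (Tg chlorhexidine), which is 1.60-fold (0.68) and 1.38-fold (0.47). The WT differences against the Tg vehicle array were 0.31 for Ctsd and 0.60 for Ctsa. Neither gene passed the size rule in either genotype.

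Cst3 did not share the pattern of the cysteine proteases that its product inhibits. Its signals were 4336 (WT vehicle), 3506 (WT chlorhexidine), 4298 (Tg vehicle) and 4272 (Tg chlorhexidine). Both vehicle arrays and the Tg chlorhexidine array lay together and the WT chlorhexidine array was 1.24-fold below its vehicle array (log2 -0.31), within the SD of 0.454, and at -0.29 against the Tg vehicle array. The sign of this value depended on the scaling: it was 0.03 after quantile normalization and 0.13 after cyclic loess. In Tg mice the difference was -0.01. The gene is read by 1 probe set.

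Over all probe sets, 21 carried a symbol of the 10 genes and 19 of these were Present on all 4 arrays; the others were a dim probe set each of Ctsa and Ctsb. Of the 19, 18 were higher with chlorhexidine in each genotype and the exception was the probe set of Cst3. Every cathepsin also stayed above 0 in both genotypes under every alternative scaling, pseudocount, filter, choice of probe set and vehicle array, with values of 0.13 to 2.39 in WT and 0.12 to 1.58 in Tg mice.

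**Figure D2:**
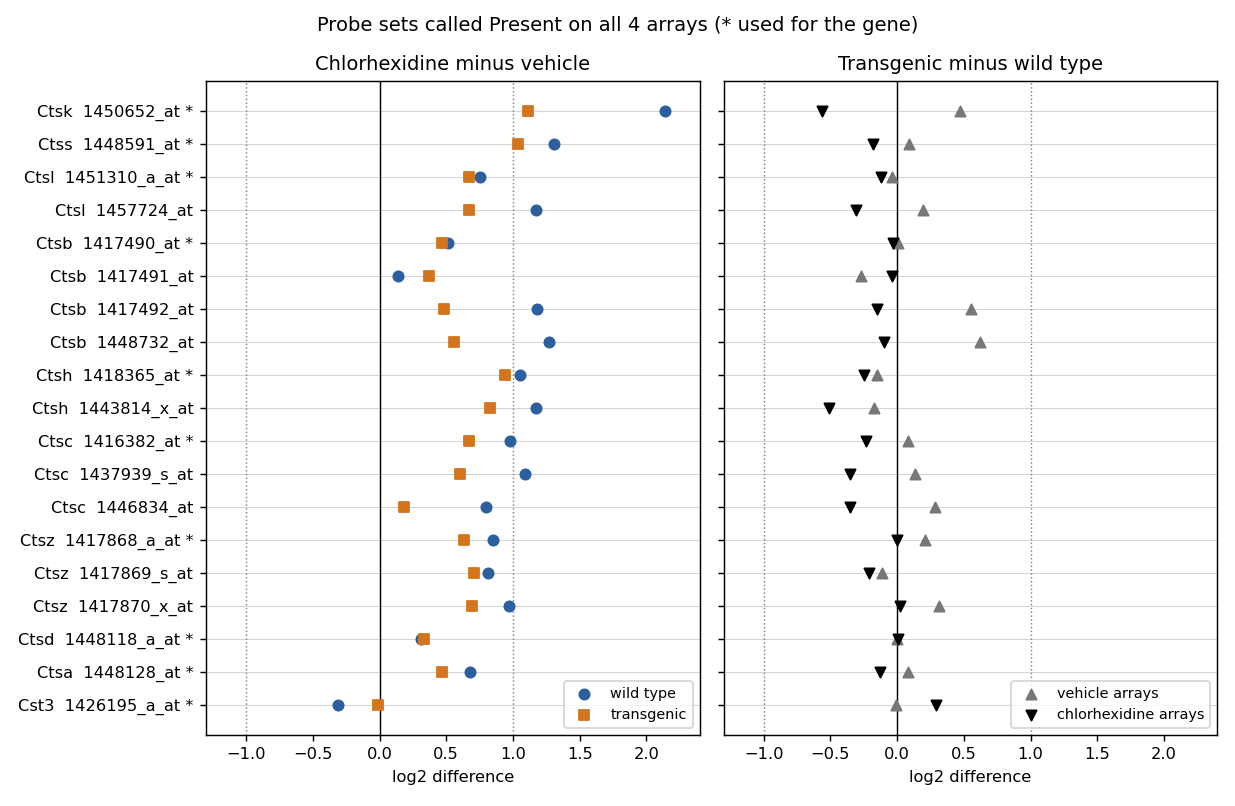
Log2 differences of the 19 probe sets Present on all 4 arrays: chlorhexidine minus vehicle in each genotype (left) and Tg minus WT under each treatment (right), with dotted lines at the 2-fold size. All cathepsin probe sets lie to the right of 0 on the left side, and the 4 Ctsb probe sets are spread from 0.14 to 1.27 in WT but from 0.37 to 0.56 in Tg mice.

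The genotypes were compared under each treatment. Between the vehicle arrays none of the 10 genes was called, where 0.957% of all genes were called higher and 0.502% lower in Tg mice. The median log2 difference was 0.04, from -0.15 for Ctsh to 0.47 for Ctsk, and that of all genes was -0.04. Ctsk was the only one of the 10 larger than the SD between probe sets of 0.399, and 28.1% of all genes were. The level of this comparison depended on the scaling, since the signals as deposited moved the median of the 10 genes to 0.46 and that of all genes to 0.37.

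Between the chlorhexidine arrays, too, none of the 10 genes was called, where 0.784% of all genes were higher and 0.964% lower in Tg mice. The median log2 difference of the 10 was -0.13, against -0.03 for all genes. On the Tg array 2 of the 10 genes were higher, Ctsd and Cst3, against 46.8% of all genes. Ctsk, at 492 against 724, differed most (-0.56) and was the only one beyond 2 SD of 0.261, as 18.2% of all genes were. Ctsh was at -0.25, Ctsc at -0.23, Ctss at -0.18, Ctsa at -0.13 and Ctsl at -0.12. These 6 genes were below 0 under every alternative, whereas the signs of Ctsb, Ctsd and Ctsz turned with the scaling. Cst3 was the one gene higher in Tg mice by more than the SD, at 0.29, but this depended on the scaling. It was 0.34 after median centring, and below that SD at 0.22 after quantile normalization, 0.12 after cyclic loess and 0.25 with the signals as deposited.

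**Figure D3:**
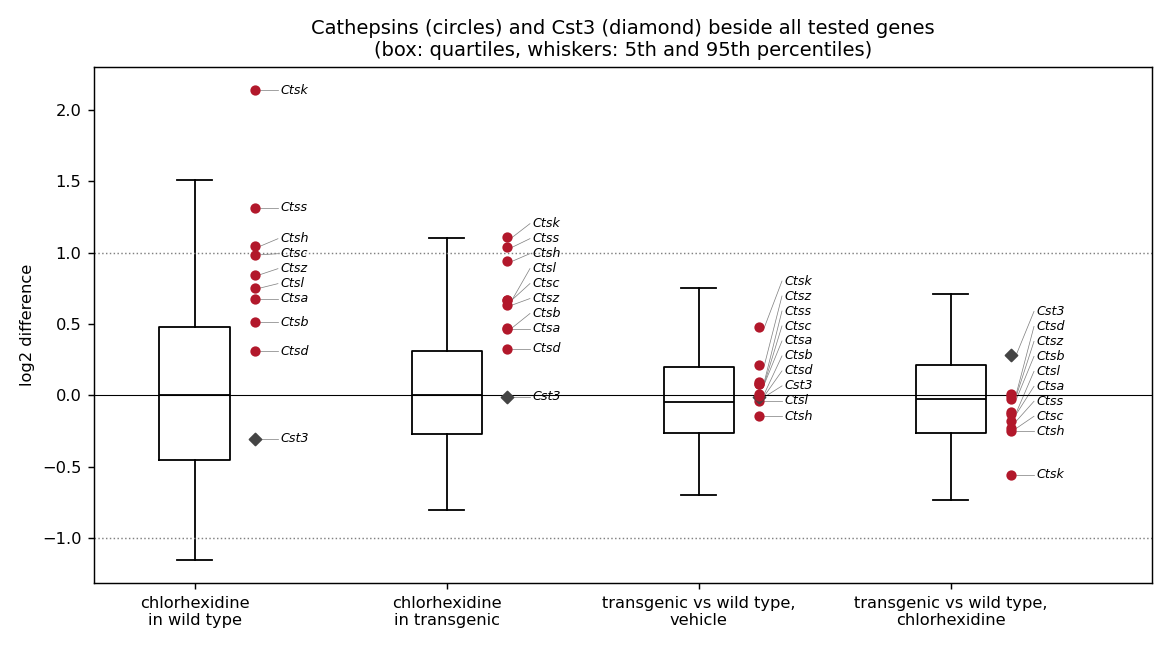
Log2 differences of the 9 cathepsin genes (circles) and Cst3 (diamond) in the 4 comparisons, beside boxes for the 12754 genes Present on at least 1 array (quartiles, whiskers at the 5th and 95th percentiles; dotted lines at the 2-fold size). In WT Ctsk, at 2.14, is the only one of the 10 above the upper whisker, and in the 2 genotype comparisons all 10 genes lie within the whiskers.

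The chlorhexidine difference of Tg mice minus that of WT mice was called for 1 of the 10 genes, Ctsk at -1.03, where 2.95% of all genes were called in this direction and 1.99% in the other. This is more than 2 SD of 0.480 between probe sets, as it was for 11.8% of all genes. It was made up of a vehicle difference of 0.47 and a chlorhexidine difference of -0.56, so the vehicle arrays gave nearly as much of it as the chlorhexidine arrays. It lost the call after median centring, with a pseudocount of 32 and at a 3-fold threshold, and it ranged from -1.49 to -0.92 over the alternatives. With 1 array for each combination of genotype and treatment, this difference was not tested. On the probe sets used, the other 9 genes lay between -0.31 (Ctsc) and 0.30 (Cst3), all within 1 SD. Other probe sets Present on all 4 arrays went beyond 1 SD, at -0.71 and -0.70 for Ctsb, -0.62 for Ctsc and -0.51 for Ctsl. The rest of these lay between -0.48 (Ctsc) and 0.23 (Ctsb). With the signals as deposited the 9 genes ran from -0.77 (Ctsc) to -0.16 (Cst3), not all within 1 SD, and the median of all genes was -0.44.

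In order of signal, 6 of the 10 genes (Ctsa, Ctsb, Ctsc, Ctsk, Ctss and Ctsz) ran from WT vehicle through Tg vehicle and Tg chlorhexidine to WT chlorhexidine, as did 12.7% of all genes. The 2 vehicle arrays, and likewise the 2 chlorhexidine arrays, differed by less than their SD between probe sets for all these genes except Ctsk. Among 10396 genes Present on all 4 arrays, those nearest to Ctsk in log2 signal centred over the 4 arrays were Zbp1, Tnfaip6 and Basp1, at distances of 0.0581, 0.108 and 0.124. Zbp1, a sensor of nucleic acids, had signals of 73.9 (WT vehicle), 330 (WT chlorhexidine), 103 (Tg vehicle) and 233 (Tg chlorhexidine). Those nearest to Ctss were Casp4, Emp3 and Myd88, at 0.0436, 0.0518 and 0.0580. Myd88, the adaptor of Toll-like receptors, had signals of 114, 292, 119 and 255 in the same order. With only 4 arrays such likeness is a description.

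The remaining cathepsin genes did not share one direction. Ctse, an aspartic protease of endosomes, had signals of 26.3 (WT vehicle), 64.9 (WT chlorhexidine), 77.3 (Tg vehicle) and 54.9 (Tg chlorhexidine). It was called higher with chlorhexidine in WT mice (2.46-fold, log2 1.30) but was lower in Tg mice (-0.49), and only the WT vehicle array was low. Against the Tg vehicle array the WT chlorhexidine array was at -0.25, with no call. Ctsf had signals of 130, 92.7, 109 and 121 in the same order and Ctso had 274, 381, 307 and 371, and neither was called. Ctsg and Ctsw, of granulocytes and killer lymphocytes, were Present on no array, nor was any of the 8 cathepsins of the placenta.

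Among the other inhibitors of cysteine proteases, 6 of the 15 measured were Present on an array, 1 of them was called higher with chlorhexidine in WT mice (2 under 3 of the 4 other scalings) and 2 in Tg mice (1 after cyclic loess). For this list and those below, the shares over all genes were 8.22% called higher in WT and 3.81% in Tg mice. The shares called lower were 4.93% and 1.4%. Kng1, the plasma protein kininogen with cystatin domains, had signals of 46.1 (WT vehicle), 172 (WT chlorhexidine), 34.7 (Tg vehicle) and 153 (Tg chlorhexidine). It was higher 3.72-fold and 4.39-fold. Its near-identical neighbour Kng2 was not measured here by a probe set of its own, so the value may hold both. Fetub, a fetuin, was called in Tg mice alone (15.4 and 36.0). In WT mice it was not Present with vehicle and at least 3.93-fold higher with chlorhexidine, but too dim there for the size rule. Cst6 (log2 -0.12 and -0.14) and Serpinb6a (0.64 and 0.16) were not called. Cstb, the intracellular cystatin B, chosen after its values were seen, was at 805 (WT vehicle), 1456 (WT chlorhexidine), 749 (Tg vehicle) and 1210 (Tg chlorhexidine), without passing the size rule.

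Of 29 other lysosomal hydrolases, all of them Present on all 4 arrays, 3 were called higher with chlorhexidine in WT mice (Lgmn, Gla and Scpep1) and 2 in Tg mice (Lgmn and Gla), and none was called lower in either. The shares of all genes called higher were 8.22% and 3.81%. The medians of the 29 were 0.53 and 0.30, with 24 and 26 above 0. With the signals as deposited the medians were 0.78 and 0.09, and 7 and 1 were called higher. That scaling called 14.9% and 5.09% of all genes, higher and lower together. After median centring 1 of the 29 was called lower in WT mice. Against the Tg vehicle array 3 were called higher in WT mice, as 7.23% of all genes were, but Gla, at 0.95, was not among them. Lgmn, the asparaginyl endopeptidase that helps mature the cathepsins, had signals of 523 (WT vehicle), 1768 (WT chlorhexidine), 599 (Tg vehicle) and 1464 (Tg chlorhexidine). It was higher 3.38-fold (1.76) and 2.44-fold (1.29). Gla, the alpha-galactosidase of glycolipid breakdown, was at 24.2, 83.1, 43.1 and 90.5 in the same order. At the other end Smpd1, acid sphingomyelinase, gave -0.90 and -0.19, and the tartrate-resistant phosphatase Acp5 gave -0.41 and -0.15. Neither was called with the common trimmed mean.

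Of 18 membrane, cofactor and sorting genes of the lysosome, 1 was called higher in both genotypes, Cd68, as 3.03% of all genes were. The WT count was 4 after quantile normalization or cyclic loess, 5 with the signals as deposited and 3 against the Tg vehicle array. Those scalings called 12.7%, 12.6% and 14.9% of all genes, higher and lower together, and 7.23% were higher against the Tg vehicle array. The Tg count was 2, 2 and 0 under those scalings, where 5.22%, 5.09% and 5.09% of all genes were called. Cd68, a macrophage sialomucin, had signals of 205 (WT vehicle), 660 (WT chlorhexidine), 261 (Tg vehicle) and 591 (Tg chlorhexidine), differences of 1.69 and 1.18. The list had medians of 0.50 and 0.17, the latter turning to -0.03 with the signals as deposited. Grn, progranulin, was at 0.99 and 0.96, just short of the size rule, but in WT mice it was called against the Tg vehicle array (1.16). Gm2a (-0.10 and -0.18) and Ctns (-0.36 and -0.11) were not called. Of 16 subunits of the vacuolar proton pump, which acidifies the lysosome, 1 was called in WT mice, Tcirg1 (79.3 with vehicle and 201 with chlorhexidine), and none in Tg mice (105 and 195). The shares of all genes called higher were 8.22% in WT and 3.81% in Tg mice. Against the Tg vehicle array Tcirg1 was at 0.93, with no call. With the signals as deposited 2 subunits were called in WT mice, as were 14.9% of all genes, higher and lower together. The list had medians of 0.13, turning to -0.05 after median centring, and 0.14, turning to -0.07 with the signals as deposited. Atp6v1a was at 0.88 and 0.56, Atp6v1e1 at -0.52 and -0.17 and Atp6v1g1 at -0.66 and 0.06, and none of these was called.

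Of the 4 MiT/TFE transcription factors, which drive lysosomal genes through the E-box, Tfeb was called lower with chlorhexidine in WT mice and Tfec higher. Tfeb had signals of 199 (WT vehicle), 86.8 (WT chlorhexidine), 151 (Tg vehicle) and 135 (Tg chlorhexidine), differences of -1.20 and -0.16, and neither with the signals as deposited nor against the Tg vehicle array (-0.80) was it called. Tfec, the macrophage member, was not Present on either vehicle array and was at 40.3 and 25.2 on the WT and Tg chlorhexidine arrays, at least 2.91-fold and 2.24-fold higher, the latter too dim for the size rule. Tfe3 (0.31 and 0.19) and Mitf (-0.11 and -0.01) were not called.

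Class II molecules and their partners, on which cathepsins S and L act, went the other way from Ctss. Of 7 measured, none was called in WT mice (1 was called lower after median centring, and 1 higher under each of the other 3 scalings) and 5 were called lower in Tg mice (Cd74, H2-DMa, H2-Aa, H2-Ab1 and H2-Eb1). The invariant chain Cd74, chosen after its values were seen, had signals of 2442 (WT vehicle), 1699 (WT chlorhexidine), 2356 (Tg vehicle) and 1064 (Tg chlorhexidine); Ctss was highest where Cd74 was low, on both chlorhexidine arrays. H2-Eb1 differed by -0.86 and -1.72 and H2-Ab1 by -0.63 and -1.71. Ifi30, the lysosomal thiol reductase of the same route, differed from the class II genes in sign at 0.94 and 0.69, and Ciita, their activator, was at -0.24 and -0.47. B and plasma cell markers, 6 of 7 measured being Present on an array, were lower together, 5 called in each genotype, with a summed signal over the 7 measured of 4240 (WT vehicle), 161 (WT chlorhexidine), 1817 (Tg vehicle) and 234 (Tg chlorhexidine). Their part in the class II values was not tested.

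Macrophage and fibroblast markers were higher along with the cathepsins, and mesothelial markers in WT mice were not. All 15 macrophage markers were Present on all 4 arrays and all were above 0 with chlorhexidine, 10 called higher in WT mice (median 1.20) and 4 in Tg mice (0.78). In WT mice 6 were called against the Tg vehicle array (median 0.81) and 1 was below 0. With the signals as deposited 2 were called in Tg mice. Their summed signal was 8565 (WT vehicle), 16468 (WT chlorhexidine), 9762 (Tg vehicle) and 15437 (Tg chlorhexidine). All 9 fibroblast markers were likewise Present and above 0, 5 called in WT mice (1.07) and 3 in Tg mice (0.54), with sums of 16503, 36895, 16874 and 29901 in the same order of arrays. The WT count was 2 after median centring, 7 with the signals as deposited and 3 against the Tg vehicle array. From low to high, both the macrophage and the fibroblast sums ran from WT vehicle through Tg vehicle and Tg chlorhexidine to WT chlorhexidine. Ctsk, Ctss and 12.7% of all genes had this order too, so it does not tell these cell types apart. Fewer cells of a type and less RNA per cell cannot be told apart in a bulk sample, nor can more cells and more RNA, and the part of these cells in the cathepsin values was not tested.

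Markers of osteoclasts, the cells in which Ctsk is highest, did not share one direction. Ocstamp, Dcstamp and Oscar were Present on no array. Of the other 5, 3 were above 0 with chlorhexidine in WT mice and 1 in Tg mice. Their medians were 0.21, turning to -0.03 after quantile normalization, and -0.20. Acp5 was at 188, 142, 164 and 148 (WT vehicle, WT chlorhexidine, Tg vehicle, Tg chlorhexidine). Itgb3, which other cells share, was the 1 of 5 called higher. It was not called against the Tg vehicle array in WT mice nor in Tg mice with the signals as deposited. The part of such cells in the Ctsk values was not tested. Neutrophil markers were called higher in 3 of 4 Present genes in each genotype (S100a8, S100a9 and Csf3r). The other, Ngp, was at -0.87 in WT and 0.97 in Tg mice, with no call. Camp, Ltf, Elane and Mpo were Present on no array, so the neutrophil list did not move as a whole. Against the Tg vehicle array 2 neutrophil markers were called in WT mice, and S100a9, at 0.38, was not. The sums over the 8 measured were 115, 471, 250 and 2206 in the same order. Most of the last sum came from S100a8 (28.2, 257, 108 and 1066) and S100a9 (14.0, 80.5, 61.8 and 930), chosen after their values were seen. The neutrophil sum was highest on the Tg chlorhexidine array, and the part of neutrophils in the cathepsin values was not tested. Of 9 mesothelial markers 7 were below 0 in WT mice (median -0.82) and 3 were called lower (5 after quantile normalization, median centring or cyclic loess), and 1 was called higher in Tg mice. Against the Tg vehicle array 2 mesothelial markers were called lower and 1 higher in WT mice. Of 6 adipocyte markers 4 were called lower in WT mice (5 against the Tg vehicle array) and 2 in Tg mice (3 with the signals as deposited). None of 10 muscle markers was called in either genotype.

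**Figure D4:**
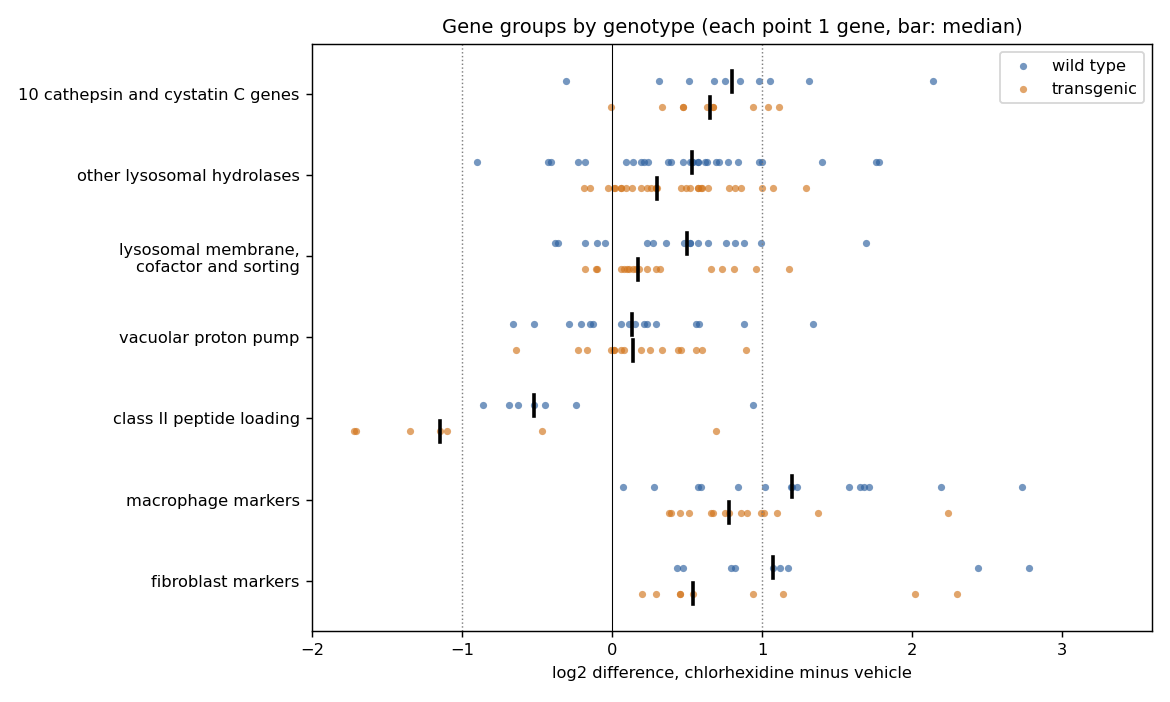
Log2 difference, chlorhexidine minus vehicle, of each gene in 7 groups (points) with the group median (bar), WT in blue and Tg in orange; dotted lines mark the 2-fold size. The cathepsin and cystatin C genes lie mostly right of 0 (medians 0.80 and 0.65), as do macrophage markers (1.20 and 0.78), and class II genes lie mostly left of it (-0.52 and -1.15).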

How the data were processed

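Total RNA of the parietal peritoneum was labelled by in vitro transcription and hybridised to 4 Affymetrix mouse arrays, per the labels' protocols. Groups came from the sample labels. The deposited values are signals, an intensity per probe set on a linear scale, per the file headers. The authors also deposited a detection p-value and a Present, Marginal or Absent call per probe set. How the signals were computed and scaled is not given in the sources used here. Scanner files were not used here, and 0 values of the deposited series table differed from the array files.

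Of 45101 probe sets, 64 controls were left out. Each array was multiplied to a common 2% trimmed mean, and log2 was taken with a floor of 0.1 (Python 3.11.15). Platform symbols were updated to RefSeq GRCm38.p6 through Entrez identifiers, and a gene took its probe set with the highest mean, so a difference applies to that probe set. Only probe sets with a single symbol were named. Calls need a log2 difference of 1, Present on the brighter array and a signal there not under the 25th percentile of its Present signals. Where the dimmer array is not Present, the fold is taken against the higher of that array's lowest Present signal and the gene's own, and is a lower bound. No model was fitted, since 1 array per group leaves no replicate error, and the number of arrays limits the precision.

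The genes and lists were chosen with earlier results of these data known. Named were the 10 genes with all their probe sets, up to 2 highest and 2 lowest genes of each pathway list by mean chlorhexidine difference, every other cathepsin Present on an array, and the 3 genes nearest in pattern to the 2 members that differed most. Genes behind small counts, and genes said to be so chosen, were named after their values were seen. Alternatives were quantile normalization, median centring, cyclic loess (limma 3.58.1 in R 4.3.3), the deposited scaling, a pseudocount of 32, other filters and probe set rules, 1.5-fold and 3-fold thresholds, and the other genotype's vehicle array. The calling step was run on simulated data with large changes placed in bright probe sets and little noise. That run checks the code and cannot show how reliable calls near the 2-fold size are.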

Additional observations from a re-analysis of the deposited data

Results flagged for a closer look

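Of the genes named by rule from the pathway lists, 3 had chlorhexidine differences of opposite sign in the 2 genotypes, each on 1 array per group, and the difference was not tested. Other genes of these lists, not named here, also differed in sign. Ctse was 1.30 higher on the log2 scale in wild-type mice and -0.49 in transgenic mice, a difference of -1.79, and its vehicle arrays themselves differed by 1.55. Ctsf was at -0.49 and 0.16, a difference of 0.64. The proton pump subunit Atp6v1g1 was at -0.66 and 0.06, a difference of 0.72. With vehicle, Ctse was lowest on the wild-type array and Atp6v1g1 highest on it, which is the array that stood apart in some of its control probes. The part of that array in these values was not tested.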

How the results depend on the processing

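No result changed sign past the size rule under any alternative. In wild-type mice the count of called genes among the 10 was 3, and became 6 with quantile normalization, cyclic loess or the deposited scaling (Ctsc, Ctsl and Ctsz passed as well), 7 at 1.5-fold and 1 at 3-fold. Of all genes, 12.7%, 12.6%, 14.9%, 31.5% and 4.48% were called under these settings in that order, higher and lower together. Median centring lowered the count among the 10 to 2, Ctsh being at 0.86, where 14.5% of all genes were called. In transgenic mice the count among the 10 was 2, and became 1 after median centring, 0 with the deposited scaling, 6 at 1.5-fold and 0 at 3-fold. There, 5.06%, 5.09%, 15.1% and 1.59% of all genes were called in that order. The call of Ctsk in the difference of differences went to 0 genes after median centring, with a pseudocount of 32 and at 3-fold. Of all genes, 5.27%, 1.73% and 1.4% were called there in that order. The median between the vehicle arrays moved to 0.46 with the deposited scaling. That scaling moved the median of all genes to 0.25 (wild-type chlorhexidine), -0.20 (transgenic chlorhexidine), 0.37 (vehicle arrays) and -0.44 (difference of differences), which is its own construction. With the other genotype's vehicle array the counts stayed at 3 and 2. Ctsd, Ctsz and Cst3 have no value when probe sets with a suffix are left out. Under that rule Ctsl passed as well in wild-type mice, at 1.17, where 13.2% of all genes were called. No paired analysis was possible because each group holds 1 array, and leaving out a replicate was not possible for the same reason. Dim probe sets near background limit what can be said of the other readings of Ctsa, Ctsc and Ctsl, and of 1 of those of Ctsb.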
